A study of Mus musculus with 15 samples.

Results

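The hypoxia-inducible factor (HIF) pathway outside glycolysis was followed in mouse embryo heads through 40 genes: the HIF subunits, the enzymes that sense oxygen and mark HIF for destruction, and HIF target genes that do not act in glycolysis. Every probe carrying 1 of these gene names was taken, which gave 75 probes for 39 of the 40 genes; no probe carried the name Loxl2. A gene counted as measured where a probe was detected on at least 3 arrays, and 36 of the 40 genes were measured, out of 11625 genes in all. Epas1, Bhlhe41 and Bnip3 had probes that did not reach that mark.

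Cells keep making HIF alpha subunits and keep destroying them while oxygen is present. Prolyl hydroxylases tag the alpha subunit, the VHL ubiquitin ligase then removes it, and when oxygen or the hydroxylases' other substrates run short the alpha subunit builds up, pairs with ARNT and binds DNA at a short core sequence. Some of the genes switched on in this way are the hydroxylases themselves, which forms a feedback loop, so that target mRNAs can report on HIF activity even though the alpha subunits are governed mostly as proteins. In the embryo the pathway is best known for vessel, heart and placenta development, which depend on HIF before and during the onset of circulation.

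The study asked which genes depend on TWIST1, a basic helix-loop-helix transcription factor, in cranial mesoderm. RNA from heads of embryonic day 9.5 (18 to 20 somites, on a C57Bl/6 x 129 x BALB/c background) was hybridised to 15 single-colour Illumina arrays. Control heads were Twist1flox/+; Mesp1+/+ (n = 3), CM-Het heads Twist1flox/+; Mesp1Cre/+ (n = 4), Het heads Twist1flox/del; Mesp1+/+ (n = 4) and CM-CKO heads Twist1flox/del; Mesp1Cre/+ (n = 4). All groups, Control included, carried a floxed Twist1 allele, and no group was free of engineered alleles. Cre from the Mesp1 locus is active in early mesoderm, so that in CM-CKO heads the cells of that lineage would lose both Twist1 copies while neural, crest and surface cells keep 1 copy. The head is a mixture of all of these, and fewer cells of a type cannot be told apart from less RNA per cell. The labels name replicates without saying whether embryos shared a litter, so the p-values below measure the spread between these heads.

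Values are log2 array signals, and a gene was called changed where its Benjamini-Hochberg adjusted p in limma, over all 11625 genes, was under 0.05. The tissue label was borne by brain markers (5 of 6 measured, Pax6 not), neural crest and arch markers (5 of 6, Hand2 not) and cranial mesoderm and mesenchyme markers (6 of 9). Twist1 was at 51.6% of the Control level in Het heads (adjusted p = 0.109), 59.0% in CM-CKO heads (adjusted p = 0.00628) and 99.3% in CM-Het heads. CM-CKO and Het heads differed by 0.19 ± 0.14 (log2, SE, adjusted p = 0.425), and whether the probe lies inside the deleted part of the gene was not analysed here. Mean signals were similar between arrays, and 19204 to 19793 probes were detected on each. CM-CKO heads stood apart in blood markers: the mean of the red blood cell list (13 of 17 genes measured) lay between 7.70 and 8.40 in the 11 other heads and was 9.497, 10.63, 8.98 and 11.16 in CM-CKO heads 1 to 4. Of its 13 genes 9 rose against Control, among them the heme enzyme Alas2, while the embryonic globins Hbb-y and Hbb-bh1, near the top of the signal range, differed by 0.12 and -0.04 and did not pass.

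Because 21 of the 36 measured members rose against Control, the promoters of 5 that rose most among those in the RefSeq promoter table are shown first. Bhlhe40 and Stc1, which rose more, had no window there. Only windows that held a HIF core, given next, were taken, so a core in each was fixed in advance. Each run covers 250 bases before to 50 bases after an annotated transcript start (RefSeq, mouse GRCm38.p6), written 5′ to 3′ on the gene's own strand, with the HIF core ACGTG or its variant GCGTG in capitals on either strand, so that a core on the other strand reads CACGT or CACGC.
Ddit4 (chr10:59951721-59952020, minus strand): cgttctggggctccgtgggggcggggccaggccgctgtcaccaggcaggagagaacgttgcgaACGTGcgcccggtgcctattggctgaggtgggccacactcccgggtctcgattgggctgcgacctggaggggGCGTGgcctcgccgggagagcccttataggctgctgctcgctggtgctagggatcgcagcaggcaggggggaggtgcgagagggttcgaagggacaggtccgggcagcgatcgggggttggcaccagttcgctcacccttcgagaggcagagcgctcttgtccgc
Ankrd37 (chr8:45999801-46000100, minus strand): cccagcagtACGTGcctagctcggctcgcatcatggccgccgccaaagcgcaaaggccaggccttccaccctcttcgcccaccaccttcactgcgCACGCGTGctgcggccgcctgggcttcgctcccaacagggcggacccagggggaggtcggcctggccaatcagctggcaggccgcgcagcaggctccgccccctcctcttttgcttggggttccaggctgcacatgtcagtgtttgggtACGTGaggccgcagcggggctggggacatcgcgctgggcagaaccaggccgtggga
Adm (chr7:110627407-110627706, plus strand): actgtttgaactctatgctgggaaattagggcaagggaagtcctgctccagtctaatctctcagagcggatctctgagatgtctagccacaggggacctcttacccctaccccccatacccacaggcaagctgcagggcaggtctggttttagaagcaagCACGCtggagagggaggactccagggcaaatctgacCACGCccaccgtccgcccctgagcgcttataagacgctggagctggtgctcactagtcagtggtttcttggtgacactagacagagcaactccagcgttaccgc
Egln3 (chr12:54203825-54204124, minus strand): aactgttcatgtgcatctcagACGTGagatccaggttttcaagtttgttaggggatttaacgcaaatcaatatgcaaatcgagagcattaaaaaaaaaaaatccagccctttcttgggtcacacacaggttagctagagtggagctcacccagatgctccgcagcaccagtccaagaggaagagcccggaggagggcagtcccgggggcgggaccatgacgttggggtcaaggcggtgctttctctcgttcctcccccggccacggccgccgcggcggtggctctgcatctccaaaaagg
Hif3a (chr7:17062378-17062677, minus strand): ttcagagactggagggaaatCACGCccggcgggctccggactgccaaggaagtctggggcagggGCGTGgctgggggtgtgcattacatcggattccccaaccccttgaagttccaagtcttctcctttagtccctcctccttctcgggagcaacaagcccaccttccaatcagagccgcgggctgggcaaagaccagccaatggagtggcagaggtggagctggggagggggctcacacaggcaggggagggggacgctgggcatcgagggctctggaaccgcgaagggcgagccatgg
Counted from the start, which is 0, the cores began at -187 and -115 in Ddit4, at -241, -155, -152 and -6 in Ankrd37 (the middle pair overlap), at -90 and -54 in Adm, at -229 in Egln3, and at -230 and -186 in Hif3a. A promoter window was found for 30 of the 40 members, and 26 of these 30 (86.7%) held ACGTG or GCGTG in at least 1 window, against 66.1% of 9388 tested genes and 43.8% of all 32851 windows. The core was found in 14 of the 15 members with a window that rose in CM-CKO heads and in 10 of the 13 that were measured and did not change. CACGTG, an E-box that contains ACGTG, was found in 8 of the 30 members (26.7%), against 11.6% of tested genes. It was found in 2 of the 15 members that rose (13.3%) and in 4 of the 13 that did not change (30.8%). A core in a window is a match of letters and does not show that HIF binds there.

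In CM-CKO heads 21 of the 36 measured members rose against Control and none fell. Among the 21, Adm, Car9 and Gbe1 counted as measured only through their detection in CM-CKO heads. Across all genes 7.23% were called in that comparison, 3.96% higher and 3.27% lower. The median member differed by 0.63 on the log2 scale and the median of all genes by -0.03. The members were chosen with earlier results of these data known, so their excess over all genes is a description. The same 21 members were also higher against Het, where 8.46% of all genes were called and 4.15% were higher, and against CM-Het, where 9.9% were called and 5.29% were higher. Of the 21, 9 were at least 2-fold higher than in Control: Bhlhe40, Stc1, Ddit4, Ankrd37, Adm, Egln3, Hif3a, Ndrg1 and Plod2. The 4 CM-CKO heads lay above all 11 other heads for 20 of the measured members, as they did for 3.17% of all genes, and below them for 1 member, Egln2, as for 3.09%. These 3 comparisons share the CM-CKO arrays, so the repeats are not independent of one another.

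**Figure D1:**
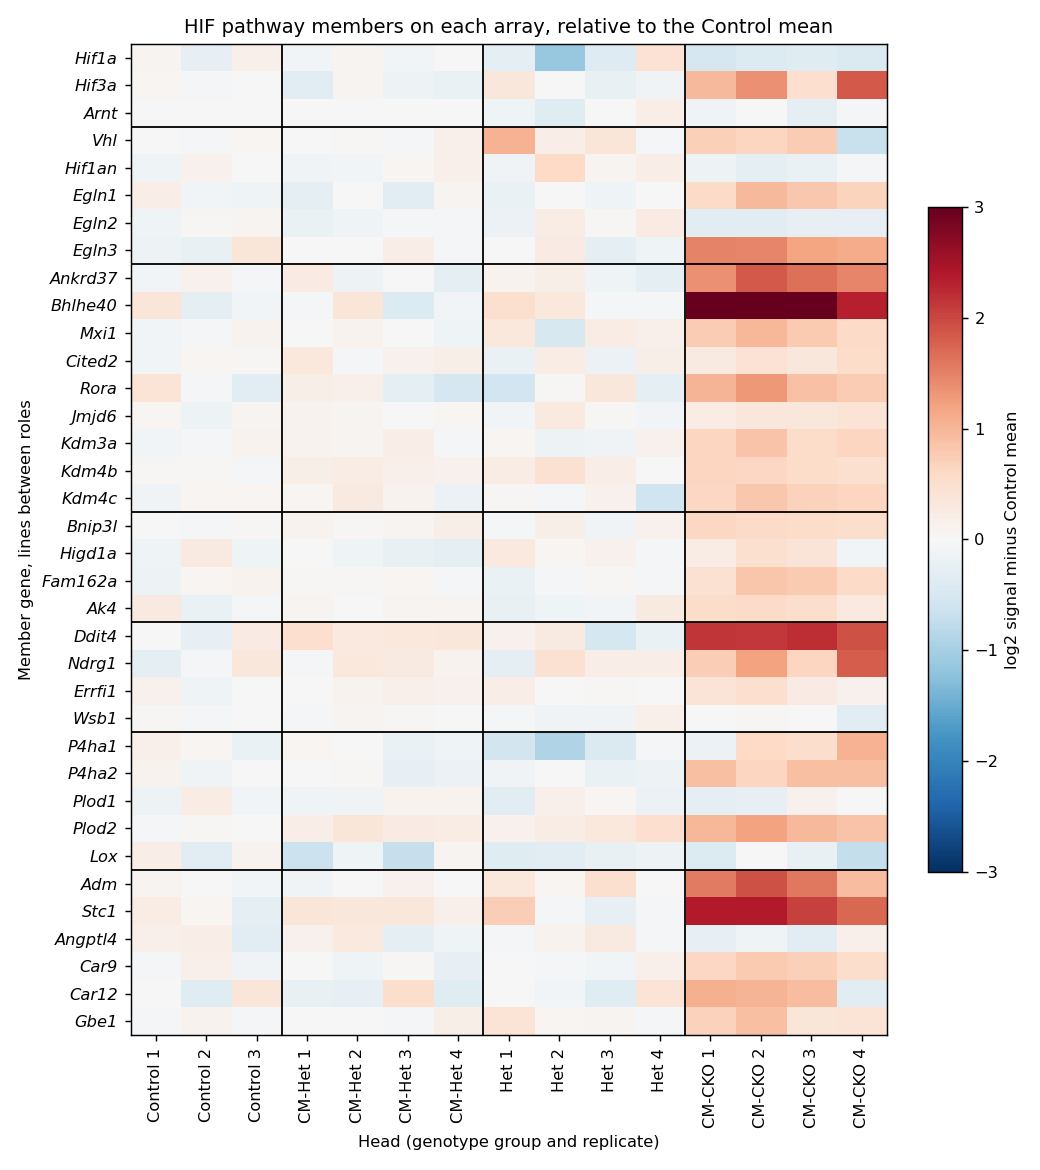
Heat map of the 36 measured members (rows, grouped by role with lines between roles) on the 15 arrays (columns), coloured by log2 signal minus the mean of the 3 Control heads, on a scale from -3 to 3. The CM-CKO columns are red for 28 of the 36 members on average, while the other columns are paler; CM-CKO 4 is the palest CM-CKO head for Bhlhe40, Stc1 and Adm and the darkest for Hif3a and Ndrg1.

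The rise was present in each CM-CKO head. The median over the 21 higher members, relative to the Control mean, was 0.76, 1.01, 0.79 and 0.75 in CM-CKO heads 1 to 4 and between -0.08 and 0.08 in the 11 other heads. These 21 were picked on the CM-CKO to Control difference, so the gap itself is a description. Within the CM-CKO group, head 2 had the highest value for 12 of the 21 and head 4 had the lowest for 12. CM-CKO 4 was hybridised on another slide than the other 3 CM-CKO heads.

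Among the HIF subunits, Hif3a was the 1 of 3 measured genes that rose. Hif3a encodes a less studied alpha subunit, which in the mouse has an inhibitory splice form. Its log2 signal was 7.05, 6.92 and 6.99 in the Control heads, 6.66, 7.06, 6.84 and 6.78 in the CM-Het heads, 7.33, 7.00, 6.76 and 6.87 in the Het heads and 7.96, 8.35, 7.49 and 8.83 in the CM-CKO heads. All CM-CKO heads lay above all others, with a spread among themselves that was wider than in any other group. The difference from Control was 1.17 ± 0.23 (SE, a 2.26-fold rise, adjusted p = 0.00636), and a second kept probe differed by 0.90 ± 0.28 (adjusted p = 0.0673 in a fit of all kept probes). The 4 CM-CKO values followed the order of the red blood cell list, lowest in head 3 and highest in head 4, and with that list as a covariate the difference was 0.38 (adjusted p = 0.479). The order of 4 heads can match by chance. The list mean separates the CM-CKO heads from all others, so that fit cannot fully tell genotype from blood content.

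Hif1a, the best studied oxygen-regulated alpha subunit, gave different answers from 2 probes annotated to the same gene. Its brighter probe (ILMN_2852034) read 7.46, 7.14 and 7.52 in the Control heads, 7.29, 7.46, 7.30 and 7.35 in the CM-Het heads, 7.10, 6.23, 6.99 and 7.79 in the Het heads and 6.87, 6.96, 7.00 and 6.94 in the CM-CKO heads. The CM-CKO heads lay below all Control and CM-Het heads and inside the range of the Het heads, and the CM-CKO minus Control difference of -0.43 ± 0.24 did not pass (adjusted p = 0.291). The dimmer probe (ILMN_2511256) read 4.34, 4.22 and 4.27 in the Control heads, 4.35, 4.48, 4.54 and 4.27 in the CM-Het heads, 4.47, 4.55, 4.37 and 4.51 in the Het heads and 5.88, 6.13, 5.42 and 6.07 in the CM-CKO heads. It was detected in all 4 CM-CKO heads and in none of the 11 others, and its CM-CKO mean was at least 2.21-fold the Control bound (adjusted p = 6.52e-06 in the fit of all kept probes). The bound here and below sets the CM-CKO mean against the higher of the gene's own signal and the lowest signal of any detected probe on each dim array. A p-value beside a bound is limma's for the measured difference, and the bound itself was not tested. The remaining Hif1a probe was detected on no array. Where in the transcript each probe lies was not analysed here, so the direction for Hif1a is unsettled. The mean of the 2 kept probes rose by 0.59 (adjusted p = 0.0211). The dimmer probe passed the detection filter only through the CM-CKO heads, where it was high, so that mean does not settle the direction.

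Arnt, the constant partner of the alpha subunits, differed from Control by -0.11 ± 0.11, and none of its 5 kept probes passed. Epas1, which encodes HIF-2 alpha and is known from endothelium, had 2 probes with signals of 4.19 to 4.83 on every array, detected on 1 array at most.

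Of the 5 genes that sense oxygen and direct HIF to destruction, 2 rose against Control, Egln3 and Egln1. Egln3 encodes the prolyl hydroxylase PHD3, the isoform with the strongest response to hypoxia in most cells. Its signal was 6.85, 6.80 and 7.39 in the Control heads, 7.01, 7.00, 7.21 and 6.94 in the CM-Het heads, 7.02, 7.26, 6.73 and 6.89 in the Het heads and 8.51, 8.48, 8.20 and 8.12 in the CM-CKO heads. No CM-CKO head overlapped with any other head, and the rise over Control was 1.31 ± 0.16 (2.49-fold, adjusted p = 0.000112). Its second kept probe differed by 0.84 ± 0.27 and did not pass (adjusted p = 0.0766 in the fit of all kept probes). Egln1, for PHD2, the main hydroxylase of HIF in normal oxygen, read 6.71, 6.43 and 6.39 in the Control heads, 6.24, 6.53, 6.17 and 6.59 in the CM-Het heads, 6.31, 6.50, 6.38 and 6.52 in the Het heads and 7.08, 7.48, 7.33 and 7.18 in the CM-CKO heads. The groups again did not overlap, the rise was 0.75 ± 0.13 (adjusted p = 0.00265), and all 3 of its kept probes passed in the fit of all probes.

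Egln2, for PHD1, leaned the other way. It read 7.21, 7.37 and 7.42 in the Control heads, 7.13, 7.21, 7.28 and 7.29 in the CM-Het heads, 7.16, 7.57, 7.36 and 7.57 in the Het heads and 7.02, 7.01, 7.09 and 7.09 in the CM-CKO heads. The CM-CKO heads were the 4 lowest of 15, by a small margin; the difference was -0.36 ± 0.10 against Het (adjusted p = 0.0339) and -0.28 ± 0.11 against Control (adjusted p = 0.127), so the fall passed only against Het, as 4.32% of all genes did in that direction. That call ended when any of 6 single arrays was left out (adjusted p 0.051 to 0.0976).

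Vhl, the substrate receptor of the ubiquitin ligase, read 6.06, 5.98 and 6.10 in the Control heads, 6.04, 6.09, 6.02 and 6.20 in the CM-Het heads, 7.10, 6.25, 6.41 and 6.02 in the Het heads and 6.77, 6.69, 6.81 and 5.39 in the CM-CKO heads. CM-CKO heads 1 to 3 and Het 1, the 4 arrays of slide 1, held the 4 highest values and CM-CKO 4 the lowest. No comparison passed, and with slide as a block the difference from CM-Het turned from 0.33 to -0.48 (adjusted p = 0.0423) and that from Het was -0.55 (adjusted p = 0.0128). Hif1an, for the asparaginyl hydroxylase FIH that blocks the HIF activation domain, differed from Control by -0.17 ± 0.14, with an adjusted p of 0.507.

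Feedback and transcriptional regulators formed the role with the most higher members, 7 of 9 measured. Bhlhe40 (chr6:108660629-108666925), a basic helix-loop-helix repressor also called DEC1, had the largest difference of all 36. Its signal was 5.32, 4.68 and 4.88 in the Control heads, 4.89, 5.33, 4.55 and 4.88 in the CM-Het heads, 5.45, 5.28, 4.93 and 4.93 in the Het heads and 8.23, 8.08, 8.06 and 7.29 in the CM-CKO heads. The CM-CKO heads lay at least 1.84 log2 units above every other head. The rise over Control was 2.95 ± 0.23, a 7.74-fold change (adjusted p = 1.28e-06), and the gene was near background elsewhere, with detection on 13 of 15 arrays. Its relative Bhlhe41, or DEC2, was detected on no array.

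Ankrd37, a short ankyrin-repeat protein and a direct HIF target, read 7.04, 7.24 and 7.08 in the Control heads, 7.37, 6.98, 7.14 and 6.84 in the CM-Het heads, 7.23, 7.30, 7.00 and 6.84 in the Het heads and 8.49, 8.97, 8.78 and 8.59 in the CM-CKO heads. Its rise over Control of 1.59 ± 0.15 (3-fold, adjusted p = 9.32e-06) was many times the spread within groups. Mxi1, which antagonises MYC by competing for MAX, read 5.36, 5.40 and 5.55 in the Control heads, 5.42, 5.55, 5.41 and 5.32 in the CM-Het heads, 5.76, 4.97, 5.66 and 5.58 in the Het heads and 6.19, 6.44, 6.22 and 6.01 in the CM-CKO heads. Each CM-CKO head exceeded each other head, and the difference was 0.78 ± 0.16 (adjusted p = 0.00789). Rora, an orphan nuclear receptor, read 5.54, 5.08 and 4.80 in the Control heads, 5.31, 5.29, 4.84 and 4.63 in the CM-Het heads, 4.57, 5.19, 5.48 and 4.87 in the Het heads and 6.16, 6.43, 6.03 and 5.89 in the CM-CKO heads. It rose by 0.99 ± 0.23 (adjusted p = 0.017), but the call ended without Control 2, without Control 3 and without CM-CKO 2 (adjusted p 0.0587 to 0.0889).

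The histone demethylases Kdm3a, Kdm4b and Kdm4c, which need oxygen for their reaction, all rose. Kdm3a read 10.24, 10.28 and 10.42 in the Control heads, 10.41, 10.39, 10.50 and 10.28 in the CM-Het heads, 10.37, 10.16, 10.20 and 10.44 in the Het heads and 10.96, 11.17, 10.86 and 10.95 in the CM-CKO heads. The rise over Control was 0.67 ± 0.10 (adjusted p = 0.00127), and all 3 kept probes passed. Kdm4b read 9.60, 9.59 and 9.499 in the Control heads, 9.73, 9.79, 9.72 and 9.68 in the CM-Het heads, 9.78, 10.03, 9.76 and 9.57 in the Het heads and 10.20, 10.19, 10.12 and 10.04 in the CM-CKO heads. Het 2 lay 0.0176 below the lowest CM-CKO head, and the difference was 0.58 ± 0.10 from Control (adjusted p = 0.00299) but 0.36 ± 0.09 from Het (adjusted p = 0.0277). The Kdm4b call against Het ended without Het 3, Het 4, CM-CKO 1 or CM-CKO 2 (adjusted p 0.0545 to 0.0853), and in 5 other fits, among them median scaling (0.417) and averaged probes (0.0583). Its second kept probe differed from Control by 0.40 ± 0.12 and did not pass (adjusted p = 0.0701). Kdm4c read 5.56, 5.74 and 5.73 in the Control heads, 5.73, 5.96, 5.78 and 5.50 in the CM-Het heads, 5.71, 5.63, 5.82 and 5.08 in the Het heads and 6.29, 6.48, 6.37 and 6.33 in the CM-CKO heads. It stood clear of all other heads, by 0.69 ± 0.15 over Control (adjusted p = 0.0124), although the call ended without Control 1 (adjusted p = 0.0642).

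Cited2, which displaces HIF from its coactivators, differed from Control by 0.40 ± 0.13 (adjusted p = 0.0669) and passed only against Het, at 0.39 ± 0.12 (adjusted p = 0.0488). That call ended in 12 of 15 fits that left out an array, and the row of its probe did not hold the same value in the authors' value table. Jmjd6, an oxygenase that binds chromatin, differed from Control by 0.32 ± 0.11 (adjusted p = 0.0759).

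**Figure D2:**
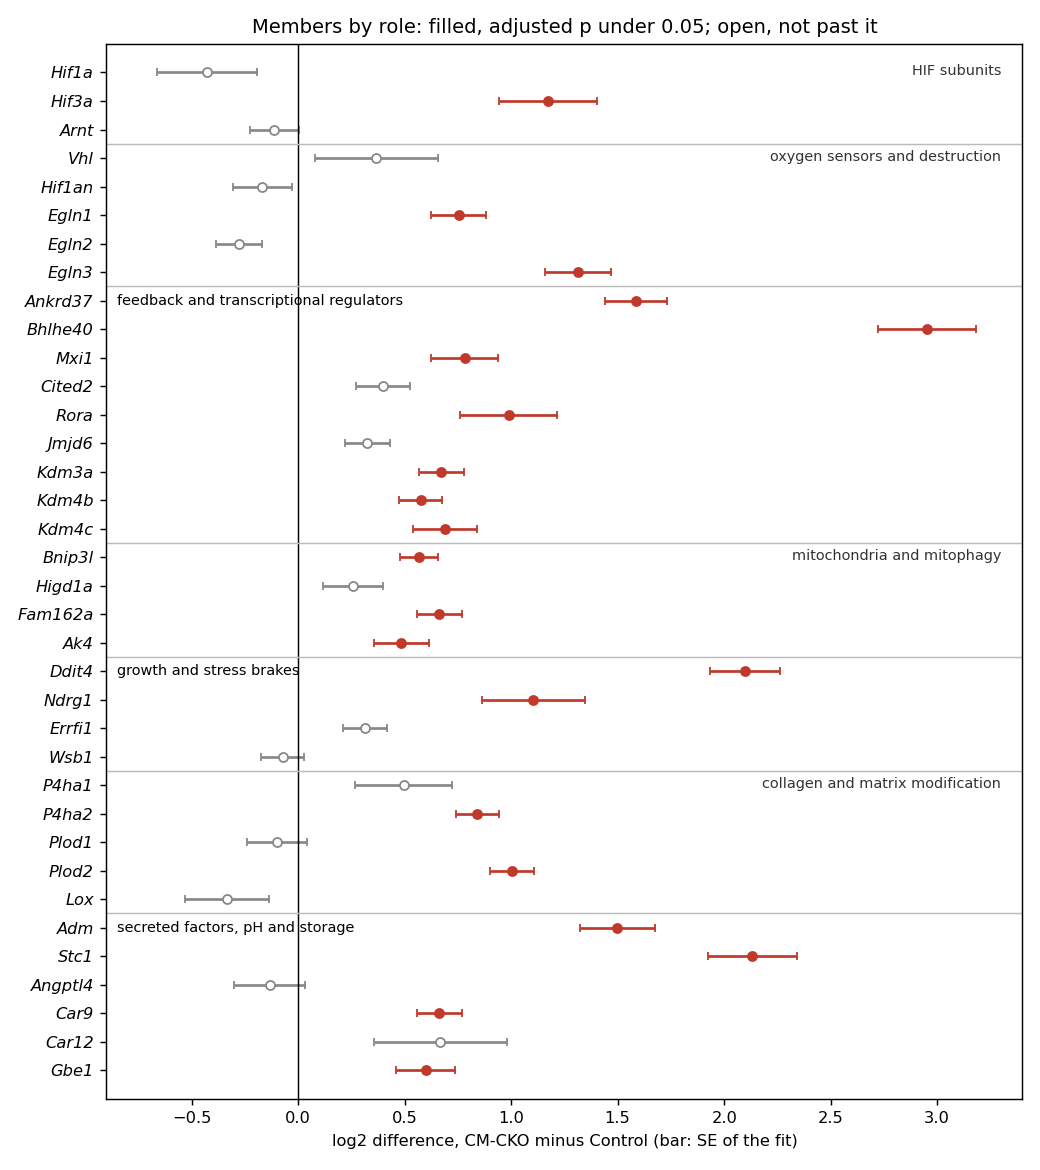
Log2 difference of CM-CKO minus Control for the 36 measured members, grouped by role (points, with bars of 1 SE of the fit); filled points passed the adjusted p threshold of 0.05 and open points did not. The 21 filled points all lie right of 0, from 0.48 for Ak4 to 2.95 for Bhlhe40; for Adm, Car9 and Gbe1, not detected in Control, the plotted difference is of measured signals.

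In the mitochondrial group 3 of 4 measured members rose, each by less than 2-fold. Fam162a, a mitochondrial protein that responds to hypoxia, read 11.63, 11.82 and 11.87 in the Control heads, 11.81, 11.80, 11.82 and 11.74 in the CM-Het heads, 11.58, 11.70, 11.80 and 11.73 in the Het heads and 12.23, 12.61, 12.55 and 12.34 in the CM-CKO heads. The CM-CKO heads were the 4 highest and exceeded Control by 0.66 ± 0.11 (adjusted p = 0.00166). Bnip3l, or NIX, a mitophagy receptor that also clears mitochondria from maturing red cells, read 11.38, 11.32 and 11.41 in the Control heads, 11.48, 11.41, 11.45 and 11.55 in the CM-Het heads, 11.32, 11.55, 11.26 and 11.51 in the Het heads and 11.99, 11.96, 11.92 and 11.90 in the CM-CKO heads. Its CM-CKO heads lay within 0.09 log2 units of each other, and the rise was 0.57 ± 0.09 (adjusted p = 0.00168). Those 4 heads did not follow the order of the red blood cell list for Bnip3l, but with so narrow a spread their order says little. With that list as a covariate the Bnip3l difference was 0.59 and did not pass against Control (adjusted p = 0.0563) or against Het (0.55, adjusted p = 0.119).

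Ak4, a mitochondrial adenylate kinase, rose by 0.48 ± 0.13 (adjusted p = 0.0359) with CM-CKO heads at 9.39 to 9.66 and Control heads at 8.89 to 9.37. Among the 21 calls it ended most often when 1 array was left out, in the 5 fits without Control 2, Control 3, or CM-CKO 1, 2 or 3 (adjusted p 0.0541 to 0.16). Higd1a, a small protein of the respiratory chain, was detected on 8 arrays and differed by 0.26 ± 0.14 (adjusted p = 0.296). Bnip3, the partner of Bnip3l and a classical HIF target, was detected on no array, its signals lying between 4.27 and 4.62.

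Among brakes on growth and stress signalling, 2 of 4 rose. Ddit4 (chr10:59949675-59951770), or REDD1, restrains the growth kinase complex mTORC1 and responds to hypoxia as well as to the stress factor ATF4. It read 9.06, 8.78 and 9.28 in the Control heads, 9.54, 9.32, 9.36 and 9.37 in the CM-Het heads, 9.17, 9.32, 8.51 and 8.85 in the Het heads and 11.18, 11.17, 11.25 and 10.95 in the CM-CKO heads. The 4 CM-CKO heads lay close together and at least 1.41 above every other head, with a rise over Control of 2.10 ± 0.17 (4.28-fold, adjusted p = 1.36e-06). Ndrg1, a stress-induced protein, read 5.23, 5.44 and 5.85 in the Control heads, 5.45, 5.82, 5.78 and 5.60 in the CM-Het heads, 5.25, 5.96, 5.71 and 5.70 in the Het heads and 6.24, 6.72, 6.15 and 7.32 in the CM-CKO heads. It too stood above all other heads, by 1.10 ± 0.24 over Control (2.15-fold, adjusted p = 0.0125), and its second kept probe rose by 1.51 ± 0.23.

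The Ndrg1 values of the CM-CKO heads followed the order of the red blood cell list, as those of Hif3a did; these were the 2 of the 21 higher members that did so. With that list as a covariate the Ndrg1 difference was 0.34 (adjusted p = 0.584). Its call ended without Control 1 (adjusted p = 0.0693) and without Control 2 (0.0549). Errfi1, which inhibits the EGF receptor, differed from Control by 0.31 ± 0.10 (adjusted p = 0.0829), and Wsb1, a substrate receptor of a ubiquitin ligase, by -0.07 ± 0.10 (adjusted p = 0.725).

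Of the enzymes that modify collagen, 2 of 5 measured rose against Control. Plod2, a lysyl hydroxylase that prepares collagen for stable cross-links, read 8.08, 8.14 and 8.08 in the Control heads, 8.30, 8.46, 8.35 and 8.32 in the CM-Het heads, 8.24, 8.33, 8.41 and 8.61 in the Het heads and 9.09, 9.30, 9.07 and 8.95 in the CM-CKO heads. No head overlapped with the CM-CKO group, and the rise was 1.00 ± 0.11 (2.01-fold, adjusted p = 3.46e-05). A further probe rose by 0.81 ± 0.13 and the remaining one, near background and detected on 6 arrays, differed by -0.16 ± 0.15. P4ha2, a catalytic subunit of collagen prolyl hydroxylase, read 8.16, 7.95 and 8.08 in the Control heads, 8.05, 8.10, 7.82 and 7.89 in the CM-Het heads, 7.95, 8.05, 7.87 and 7.91 in the Het heads and 8.98, 8.71, 8.98 and 8.96 in the CM-CKO heads. Its rise was 0.84 ± 0.10 (adjusted p = 0.000141), with 0.86 ± 0.14 from the second probe.

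P4ha1, the other catalytic subunit, read 7.83, 7.72 and 7.48 in the Control heads, 7.73, 7.68, 7.48 and 7.55 in the CM-Het heads, 7.12, 6.78, 7.25 and 7.61 in the Het heads and 7.49, 8.27, 8.20 and 8.71 in the CM-CKO heads. CM-CKO 1 lay within the Control range and 3 of the 4 Het heads lay below it, and the difference passed against Het at 0.98 ± 0.21 (adjusted p = 0.00891) and not against Control at 0.49 ± 0.23 (adjusted p = 0.2). The dimmer P4ha1 probe differed from Control by 0.67 ± 0.16 (adjusted p = 0.0232 in the fit of all kept probes). With the red blood cell list as a covariate the Control difference of the brighter probe was -0.14. Plod1, a relative of Plod2, differed by -0.10 ± 0.14 (adjusted p = 0.729), and Lox, the oxidase that cross-links collagen and elastin, by -0.34 ± 0.20 (adjusted p = 0.329).

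Secreted factors and genes of pH balance and storage gave 4 higher members of 6. Of these, Adm, Car9 and Gbe1 reached the mark of detection on 3 arrays only through CM-CKO heads. They could be measured only by being detected there, so their place in the count and their p-values are descriptions. Those p-values are limma's for the measured differences, and the bounds were not tested. Stc1 (chr14:69029289-69041401), a secreted glycoprotein, read 7.05, 6.88 and 6.53 in the Control heads, 7.18, 7.16, 7.15 and 6.97 in the CM-Het heads, 7.55, 6.77, 6.57 and 6.78 in the Het heads and 9.20, 9.19, 8.88 and 8.54 in the CM-CKO heads. Apart from Het 1 at 7.55, no head outside the CM-CKO group exceeded 7.18, and the rise over Control was 2.13 ± 0.21 (4.38-fold, adjusted p = 1.76e-05). Adm encodes adrenomedullin, a peptide that acts on blood and lymph vessels. Its signal was 4.59, 4.53 and 4.42 in the Control heads, 4.41, 4.50, 4.63 and 4.50 in the CM-Het heads, 4.83, 4.56, 4.98 and 4.53 in the Het heads and 6.08, 6.43, 6.10 and 5.44 in the CM-CKO heads. It was detected in all 4 CM-CKO heads, in 2 Het heads and in no Control or CM-Het head, and was at least 2.42-fold higher than in Control (adjusted p = 0.000107) and at least 2.45-fold higher than in CM-Het (adjusted p = 5.38e-05).

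Car9, a cell-surface carbonic anhydrase that is a classical HIF marker, read 4.51, 4.73 and 4.47 in the Control heads, 4.58, 4.45, 4.61 and 4.33 in the CM-Het heads, 4.58, 4.55, 4.48 and 4.73 in the Het heads and 5.19, 5.35, 5.28 and 5.11 in the CM-CKO heads. It too was detected in no Control or CM-Het head, and was at least 1.41-fold higher than in Control (adjusted p = 0.00166 for the measured difference). Gbe1, the glycogen branching enzyme, read 4.26, 4.44 and 4.28 in the Control heads, 4.34, 4.34, 4.30 and 4.49 in the CM-Het heads, 4.74, 4.38, 4.41 and 4.28 in the Het heads and 5.03, 5.23, 4.69 and 4.75 in the CM-CKO heads. Its CM-CKO 3 value lay below that of Het 1, the only overlap among the 21, and the rise was at least 1.14-fold over Control (adjusted p = 0.0159 for the measured difference). That call ended without Control 1, Control 3 or CM-CKO 2 (adjusted p 0.0519 to 0.0687).

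Car12, another carbonic anhydrase, split within the CM-CKO group. It read 7.63, 7.28 and 8.01 in the Control heads, 7.40, 7.39, 8.17 and 7.27 in the CM-Het heads, 7.65, 7.55, 7.28 and 8.03 in the Het heads and 8.70, 8.65, 8.57 and 7.29 in the CM-CKO heads. CM-CKO heads 1 to 3 were the highest of all arrays and head 4 was among the lowest, so the difference of 0.67 ± 0.31 did not pass (adjusted p = 0.211). Angptl4, which inhibits lipoprotein lipase, differed by -0.13 ± 0.17 (adjusted p = 0.689).

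No member passed in either genotype that keeps a working Twist1 copy in every cell. In Het against Control and in CM-Het against Control none of the 36 members was called and none of the 11625 genes was (0% in each). Twist1 itself, at 51.6% of the Control level in Het heads, was not called there (limma adjusted p = 0.109). The lack of calls thus does not show a lack of change. At an unadjusted p under 0.05, limma gave 3 members (Kdm4b, P4ha1 and Plod2) and 5.46% of all genes for Het, and 2 members (Ddit4 and Plod2) and 3.55% of all genes for CM-Het. Over the 21 higher members the differences from Control ran from -0.12 to 0.30 in Het heads and from -0.15 to 0.36 in CM-Het heads.

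Whether the Cre difference depended on the deleted allele was tested directly as an interaction, the CM-CKO minus Het difference less the CM-Het minus Control difference. For 10 members the interaction passed in the higher direction and for none in the lower, whereas 1.07% of all genes passed, 0.671% higher. It was largest for Bhlhe40 at 2.82 ± 0.31 (adjusted p = 0.000216), Ddit4 at 1.82 ± 0.23 (0.000501), Stc1 at 1.74 ± 0.28 (0.00669) and Ankrd37 at 1.66 ± 0.20 (0.000405). The other members that passed were Egln3 at 1.32 ± 0.21 (0.00626), Adm at 1.28 ± 0.24 (0.018), P4ha2 at 1.06 ± 0.14 (0.000874), Egln1 at 0.96 ± 0.18 (0.0161), Car9 at 0.73 ± 0.14 (0.0223) and Fam162a at 0.71 ± 0.14 (0.027). Hif3a, at 1.32 ± 0.31 with an adjusted p of 0.0538, and Kdm3a, at 0.61 ± 0.14 with 0.052, came next and did not pass. Leaving out single arrays ended 4 of the 10 calls: Egln1, Adm, Car9 and Fam162a. Adm and Car9 also counted as measured only through their detection in CM-CKO heads. As the members were chosen with earlier results known, the share of members that passed is a description too.

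**Figure D3:**
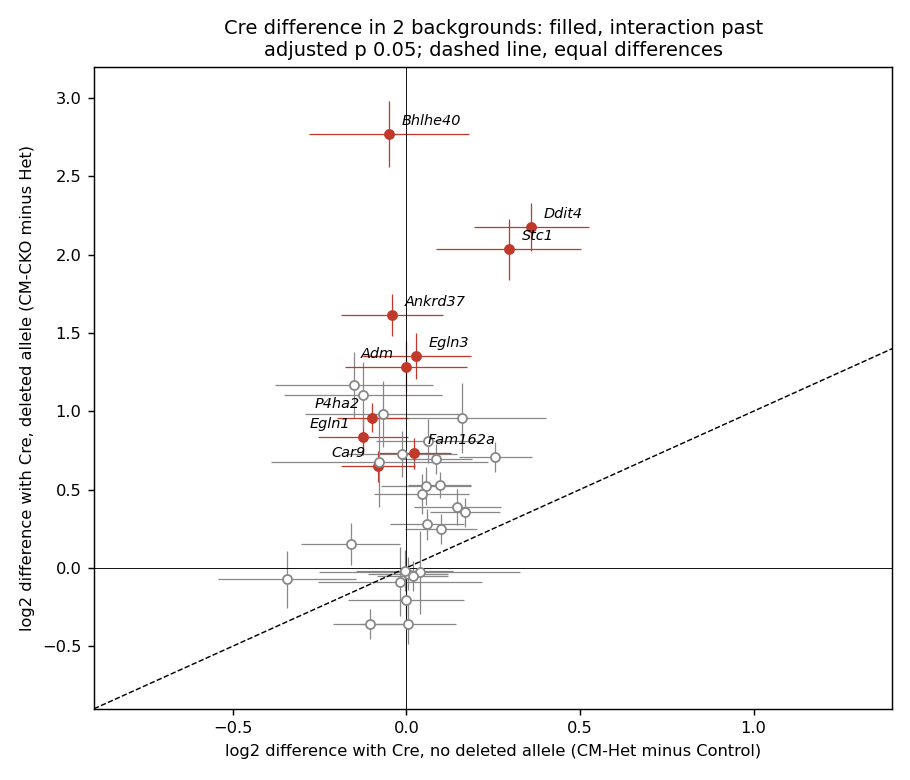
Log2 difference between heads with and without Mesp1-Cre for the 36 measured members, in heads with a deleted Twist1 allele (vertical axis, CM-CKO minus Het) and without one (horizontal axis, CM-Het minus Control), which share no arrays; bars are 1 SE and the dashed line marks equal differences. The 10 filled points passed the interaction test and rise from 0.65 for Car9 to 2.77 for Bhlhe40 on the vertical axis, while all points lie between -0.34 and 0.36 on the horizontal axis.

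The slides were unevenly filled: slide 1 held CM-CKO 1 to 3 and Het 1, slide 2 no CM-CKO head, and slide 3 CM-CKO 4 with heads of the other 3 groups. Within slide 3, CM-CKO 4 exceeded the mean of the 2 Control heads for 26 of the 36 measured members, with a median difference of 0.51. It exceeded the mean of the 2 CM-Het heads for 26 members (median 0.48) and the 1 Het head for 27 (median 0.45). Within slide 1 the mean of the 3 CM-CKO heads exceeded Het 1 for 30 of 36 members, with a median of 0.63. The share of all genes that was positive in these 4 differences was not computed. The counts thus do not show whether the members differ from genes at large. The 21 higher members, which were called on these same arrays, were positive in each of the 4 differences, with medians of 0.84, 0.79, 0.90 and 0.92. With slide as a block in limma 17 of the 21 calls against Control held; Mxi1, Kdm4c, Ak4 and Gbe1 did not pass (adjusted p 0.0564 to 0.171).

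Blood markers moved with the same heads. With the red blood cell list mean as a covariate 9 of the 21 calls against Control held (Bhlhe40, Ddit4, Stc1, Ankrd37, Adm, Egln3, Plod2, P4ha2 and Car9), and Car12 passed at 1.70 (adjusted p = 0.0385). All 21 kept a positive difference in that fit, and for 7 of the 9 it was larger than without the covariate. The covariate itself separates the CM-CKO heads from all others, so that genotype and blood content cannot be told apart fully. The platelet list, of which 5 of 6 genes rose, had a mean of 5.60 to 7.20 in CM-CKO heads and 4.60 to 5.34 in the others. The endothelial list, of which 2 of 9 fell and none rose, had a mean of 7.88 to 8.09 against 8.13 to 8.44. The brain list, of which 1 of 5 fell and none rose, was also lower in each CM-CKO head (8.09 to 8.29 against 8.37 to 8.66). The list of surface and pharyngeal epithelium, of which 1 of 4 rose and none fell, was higher (8.16 to 8.62 against 7.72 to 8.12). Against Control 3.96% of all genes were higher and 3.27% lower, and whether the counts of these lists differ from those shares was not tested. The part of these shifts in cell make-up in the members' rise was not tested beyond the fit with the covariate.

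**Figure D4:**
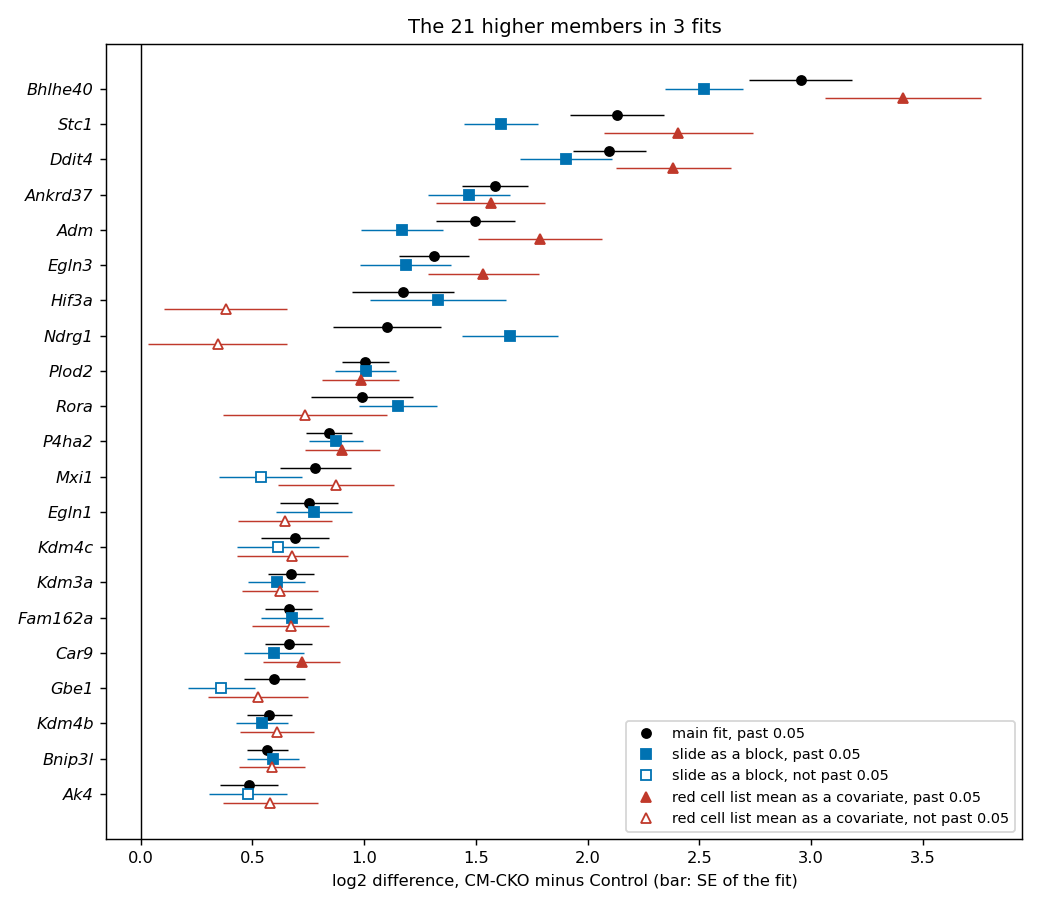
Log2 difference of CM-CKO minus Control for the 21 higher members in the main fit (black circles), with slide as a block (blue squares) and with the red blood cell list mean as a covariate (red triangles); bars are 1 SE, and open symbols did not pass the adjusted p threshold of 0.05. Every symbol lies right of 0, and the red triangles of Hif3a (0.38) and Ndrg1 (0.34) lie farthest below their black circles.

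Other genes of the pathway were read from lists beyond the 40 members, in CM-CKO heads against Control. In that comparison 3.96% of all genes were called higher and 3.27% lower. These lists too were chosen with earlier results of these data known. Of 14 measured genes of the HIF machinery (ubiquitin ligase subunits, coactivators and the second ARNT), 1 rose and 2 fell, and the list median was -0.03. Whether counts this small differ from the shares of all genes was not tested. Cited4, a CITED-family coactivator partner, rose by 2.68 ± 0.49 (adjusted p = 0.00379); Cited1 fell by 0.63 (adjusted p = 0.0168) and Eloc, an adaptor of the VHL ligase, fell by 0.39 (adjusted p = 0.033). Elob, its partner, and Rbx1, the ring subunit, differed by -0.17 and 0.20 and did not pass. Of 26 other HIF targets outside glycolysis 9 rose and none fell, with a median of 0.47: the most changed were Stc2 at 2.19 ± 0.17, the lipoprotein receptor Vldlr at 1.98 ± 0.14, the glycogen-targeting subunit Ppp1r3c at 1.63 ± 0.11 and the kinase Pim1 at 1.43 ± 0.24, while Mif and P4hb differed by -0.0027 and 0.036 and did not pass.

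For comparison, 10 of 18 measured glycolytic HIF targets rose in CM-CKO heads against Control and none fell, with a median of 0.52. Across all genes 3.96% were higher in that comparison and 3.27% lower. Pdk1, which diverts pyruvate from mitochondria, rose by 1.36 ± 0.15, Pfkfb4 by 1.29 ± 0.32, Pfkp by 1.02 ± 0.16 and Aldoc by 0.89 ± 0.12, while Ldha and Pkm, near the top of the signal range, differed by -0.05 and 0.07. Targets of ATF4, the factor of the amino acid stress response, rose in the same heads: 10 of 17, none lower, with a median of 0.86. Chac1 rose by 3.53 ± 0.24, Trib3 by 2.90 ± 0.37, and Stc2 and Vldlr, already named, stand in both lists, while Psat1 and Phgdh, of serine synthesis, differed by 0.07 and -0.47 and did not pass. Ddit4 and Stc2 respond to more than 1 of these factors, so membership in a list does not say which factor acted, and that was not tested.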

How the data were processed

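The deposited signals were intensity values of 45281 probes on 15 arrays, neither normalized nor background-subtracted per the file headers and the values, and their software is not stated in the labels. The detection p-values deposited beside them, per the file headers, followed another row order than the signals and were re-attached by rank within each array; the column of Het 1 held copies of the authors' log2 values, which were replaced by the mean by rank of the other 14 arrays. The authors' value table held log2 signals, equal within 0.02 to quantile-normalized deposited signals for 42477 probes; in the other 2804 rows the 2 tables differ and which is right is not known.

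Signals were corrected with limma 3.58.1 in R 4.3.3 (nec, with negative controls inferred from detection p, offset 16), then quantile-normalized between arrays as log2 values. Probes detected (p under 0.05) on at least 3 arrays were kept, 21869 in all, and a gene was read from its brightest kept probe. Gene names came from the platform annotation given for the series, and promoters and positions from RefSeq (GRCm38.p6). The 4 groups were fitted together (lmFit, contrasts.fit, eBayes) with Benjamini-Hochberg adjustment over 11625 genes, and the fit was tested on simulated data. SE is that of the fit. Deposited mean signals ran from 341.0 to 434.4, and the number of arrays limits the precision.

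The members and lists were chosen with earlier results of these data known. Members changed against Control or Het, up to 20 by size, have their value on every array in the text; HIF subunits and sensors are named whatever their change; of other lists up to 4 changed and 2 unchanged genes are named. Alternatives were other background, scaling, filter and probe rules, slide and replicate-number blocks, the red blood cell list as a covariate, the authors' table, fewer groups, and leaving out each array. Figures were drawn with matplotlib 3.10.9.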

Additional observations from a re-analysis of the deposited data

Results flagged for a closer look

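A set of 10 results turned on a tested difference between 2 backgrounds: the Cre difference was larger with the deleted Twist1 allele than without it, by limma's interaction term, for 10 of 36 measured members. Across all genes 0.671% passed in that direction. The interaction was 2.82 for Bhlhe40, 1.82 for Ddit4, 1.74 for Stc1, 1.66 for Ankrd37, 1.32 for Egln3, 1.28 for Adm, 1.06 for P4ha2, 0.96 for Egln1, 0.73 for Car9 and 0.71 for Fam162a, all on the log2 scale. Adm and Car9 counted as measured only through their detection in CM-CKO heads. Leaving out single arrays ended 4 of the 10 calls, and 3 held in every alternative: Ankrd37, Bhlhe40 and Ddit4.

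Single heads stood far from the rest of their group, relative to its spread, in 8 of 108 groups of 4 heads. Chance alone gives about 1 in 20, so the count is near that rate. CM-CKO 4 was low for Vhl at 5.39, with the nearest CM-CKO head at 6.69, for Car12 at 7.29, with the nearest at 8.57, and for Wsb1 at 10.94, with the nearest at 11.24. That head is the only CM-CKO head on slide 3 and has the highest red blood cell list mean (11.16); the part of either was not tested. P4ha2 was low in CM-CKO 2 at 8.71, with the nearest at 8.955. In CM-Het heads, Ak4 was low in head 2 at 9.08 (nearest 9.17) and Stc1 low in head 4 at 6.97 (nearest 7.15), both by small gaps. Car12 was high in CM-Het 3 at 8.17 (nearest 7.40). Errfi1 was high in Het 1 at 10.03, the nearest Het head being at 9.86.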

How the results depend on the processing

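Among the alternatives run, 3 of the 21 member calls against Control held in all of them: Ankrd37, Bhlhe40 and Stc1. The direction turned, with a call, for Hif1a when its kept probes were averaged (0.59 against Control, 0.66 against Het, 0.53 against CM-Het). The Hif1a probes differ as reported, and the dimmer was kept only through its detection in CM-CKO heads. For Vhl the direction turned, with a call, with slide as a block (-0.48 against CM-Het, adjusted p = 0.0423), and the cause was not tested. With the red blood cell list as a covariate the members called were 10 against Control, 7 against Het, 9 against CM-Het and 4 in the interaction, and all genes called were 212, 74, 188 and 22. Whether replicate numbers pair the heads is not settled. After group means were removed, same-numbered heads correlated at -0.13 to 0.33 and 5 of 21 pairs were over 0.1. Yet 9 arrays correlated best with a head of their own number. The replicate block alone gave 20 members against Control; the replicate block together with slide, which leaves few degrees of freedom, gave 3 (31 genes) against Control, 19 against Het and 12 (399 genes) against CM-Het. Scaling to the same median gave 434 genes against Control, 582 against Het and 6 members in the interaction, and moved the share of higher calls against Control from 54.8% to 77.4%; it put the median of all genes at -0.21 in the interaction, and the 21 higher members stayed positive in the 3 CM-CKO comparisons. Fitting only the groups compared, thus with fewer arrays, gave 273 genes against Control and 334 against Het. The interaction called 263 genes with slide as a block. CM-Het against Control called 2 genes with averaged probes, 2 with the covariate and 2 with only those groups.

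Leaving out 1 array at a time gave 18 to 24 members against Control, 18 to 24 against Het, 19 to 24 against CM-Het, 7 to 12 in the interaction and 0 in the other comparisons. Genes called ran from 385 to 1030 against Control, from 504 to 1272 against Het, from 550 to 1257 against CM-Het, from 0 to 1 (without Het 4) in Het against Control, and from 57 to 330 in the interaction. Against Control the count fell by over 1.5 times without Control 1 (386), Control 2 (385), Control 3 (409) or CM-CKO 2 (398); against Het without Het 2 (639), Het 3 (632) or CM-CKO 2 (504); and against CM-Het without CM-Het 1 (678), 2 (683), 3 (751) or 4 (733) or CM-CKO 2 (550). The interaction count moved as far without each Control head (60, 64 and 59), each CM-Het head (57, 66, 71 and 65), Het 1 (203), Het 4 (77), or CM-CKO 1 (203), 2 (61) or 3 (330). Signal over background limits Adm, Car9 and Gbe1, whose interaction or Het calls ended without background correction for Adm (adjusted p = 0.0545), Car9 (0.126) and Gbe1 (0.0736).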
